A study of Homo sapiens with 6 samples.

Results

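The genes described here make cholesterol and fatty acids. A list of 37 genes was set by symbol: 5 regulators, 18 genes of the sterol arm and 14 of the fatty acid arm. Of these, 36 were listed in the expression table of 23569 genes, all 36 passed the filter on low values, and THRSP was not listed in the table. The filter kept the 15353 genes whose mean over the libraries reached 0.1 FPKM, the number of fragments scaled to gene length and library total. The libraries came from TFK1, an established human cholangiocarcinoma line (a carcinoma of the bile duct), and were measured by RNA-seq. There were 3 libraries from negative control cells (oeNC) and 3 from cells given an excess of the ubiquitin ligase STUB1 (oeSTUB1). The paper's methods describe overexpression by stable lentiviral transduction with a pHAGE vector and selection with puromycin. They do not name the vector of the negative control or say apart that its cells were selected. The methods describe no more than 1 stable population per group, so the STUB1 vector and the history of the transduced population cannot be told apart. Nothing in the labels says that the 3 libraries of a group came from separate cultures, and the p-values measure the spread between these libraries.

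Cholesterol is built from acetyl-CoA through mevalonate, squalene and lanosterol. Long-chain fatty acids are built from the same acetyl-CoA by carboxylation, condensation, elongation and desaturation. Both routes are switched on by the SREBP factors. SREBP precursors sit in the endoplasmic reticulum bound to the escort protein SCAP, which INSIG proteins hold back when sterol is plentiful. When sterol is low, the factors are cut free and enter the nucleus. SREBF2 encodes the factor known mainly for sterol genes and SREBF1 the factors known mainly for fatty acid genes. The cutting is a step of the protein, which mRNA levels do not show.

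Library totals, recovered from the FPKM values as their denominator, lay between 33106564 and 36744521 fragments. The recovered fragments of the listed genes made up 99.7% of these totals. The number of reads sequenced or mapped is not known from them. Replicate 2 of oeSTUB1 stood apart from the rest. Its chi-square per degree of freedom against the other oeSTUB1 libraries was 76.7 and 71.1, while the remaining pairs within a group lay between 3.37 and 9.82. Its FPKM values summed to 445507, against 395202 to 408809 in the other 5 libraries. The departure of this library followed gene length: over the 36 genes, the log2 ratio of replicate 2 to the mean of replicates 1 and 3 had a Spearman correlation of -0.73 with length, and over the 15353 tested genes -0.54. These correlations run across genes that share the same libraries and are given as a description. The 18 genes shorter than the median of 4256 bases were a median 0.18 higher on the log2 scale in replicate 2, and the 18 longer ones a median 0.19 lower (-0.19). The largest departures were those of PMVK (1281 bases), at 1.91 times, and ACACA (11427 bases), at 0.548 times the mean of the other oeSTUB1 libraries. EBP, the shortest of the genes (1125 bases), stood at 1.48 times and STARD4, next in length to ACACA (10140 bases), at 0.917 times. Results that turn on this library are therefore given with and without it.

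**Figure D1:**
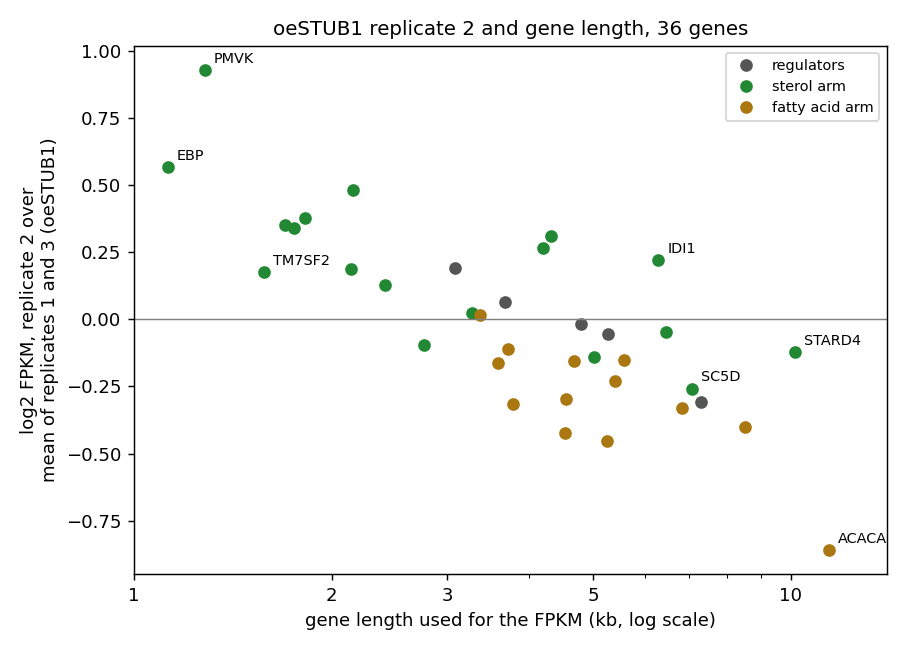
Each point is 1 of the 36 genes, with the length used for its FPKM on a log axis (kb) and the log2 ratio of oeSTUB1 replicate 2 to the mean of oeSTUB1 replicates 1 and 3 on the vertical axis. Points fall from PMVK and EBP, short genes above the zero line, to ACACA, a long gene at a ratio of 0.548.

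STUB1 itself stood at 32.9, 33.0 and 30.9 FPKM in the oeNC libraries and at 61.4, 75.0 and 61.9 FPKM in the oeSTUB1 libraries. The groups did not overlap, and the log2 fold change was 1.03 ± 0.10 (SE; limma, adjusted p = 6.4e-04). In the annotation 42.4% of STUB1's exon bases are shared with JMJD8, which lies on the other strand, and the strand setting of the counting is not given in the sources used here. All 8 markers of biliary epithelium had a mean above 1 FPKM over the 6 libraries. KRT7 averaged 502 FPKM in oeNC and 704 FPKM in oeSTUB1, while KRT19, another keratin of bile duct cells, averaged 0.453 and 2.97 FPKM. The summed level of the 8 was 7534 to 8126 FPKM in oeNC and 4805 to 6366 FPKM in oeSTUB1. Of these, 1 was called higher (KRT19) and 5 lower, against 7.01% and 6.59% of all tested genes. The 5 lower, with oeNC means first, were KRT8 (3220 and 2170 FPKM) and KRT18 (3964 and 2488 FPKM). The others were EPCAM (6.51 and 2.96 FPKM), CDH1 (62.6 and 30.0 FPKM) and SPP1 (125 and 89.2 FPKM). Many markers of other cells were low, but not all. The highest value in any library was 0.28 FPKM for PTPRC (leukocytes) and 0.0215 FPKM for COL1A2 (fibroblasts). It was 0.221 FPKM for PECAM1 (endothelium) and 0.0512 FPKM for ALB (hepatocytes). With a mean above 1 FPKM in these lists were COL1A1 and ACTA2 (fibroblasts), CD68 (leukocytes) and HNF4A (hepatocytes). Their highest values were 3.68, 6.6, 27.7 and 11.3 FPKM in that order. The summed level was 27.7 to 28.3 against 20.4 to 20.6 FPKM for the 6 leukocyte markers and 11.2 to 12.1 against 5.19 to 7.05 FPKM for the 6 hepatocyte markers, oeNC first in both, with CD68 and HNF4A called lower. It was 7.19 to 8.89 against 7.61 to 10.6 FPKM for the 8 fibroblast markers, and 0.0713 to 0.0973 against 0.0974 to 0.231 FPKM for the 4 endothelial markers. The part of these shifts in the results below was not tested.

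Across the 36 genes, STUB1-overexpressing cells differed little from control cells, and the differences that passed the test were scattered along both routes. In these bulk libraries fewer expressing cells and less RNA per cell cannot be told apart. SC5D and TM7SF2 differed in the sterol arm, the former lower and the latter higher. In the fatty acid arm FADS2, ELOVL6 and ACSL4 were higher and ME1 was lower. In all 6 of 36 genes passed (limma on log2(FPKM + 0.1), Benjamini-Hochberg adjusted p under 0.05), against 13.6% of all tested genes, so the share was near that of the table as a whole. Higher were 4 genes and lower 2, against backgrounds of 7.01% and 6.59%. None of the 36 had an absolute log2 fold change over 1 together with a passing p, a combination met by 5.2% of tested genes. The median log2 fold change was 0.02 over the 36 genes and 0.02 over all tested genes, and the median absolute value was 0.17 against 0.21. For 29 of the 36 genes the 95% confidence interval lay wholly within a 1.5-fold change in either direction, against 52.9% of all tested genes. The intervals of the 36 were also narrower, with a median width of 0.50 against 0.65 on the log2 scale. The libraries of the groups did not overlap for 16 of the 36 genes, 11 of them higher and 5 lower in oeSTUB1, against 38.8% of all tested genes. SC5D and FADS2 passed in each of the 16 alternative analyses, while the other 4 passed in 6 to 9 of them. Without oeSTUB1 replicate 2, 13 of the 36 genes passed, against 26.8% of all tested genes.

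**Figure D2:**
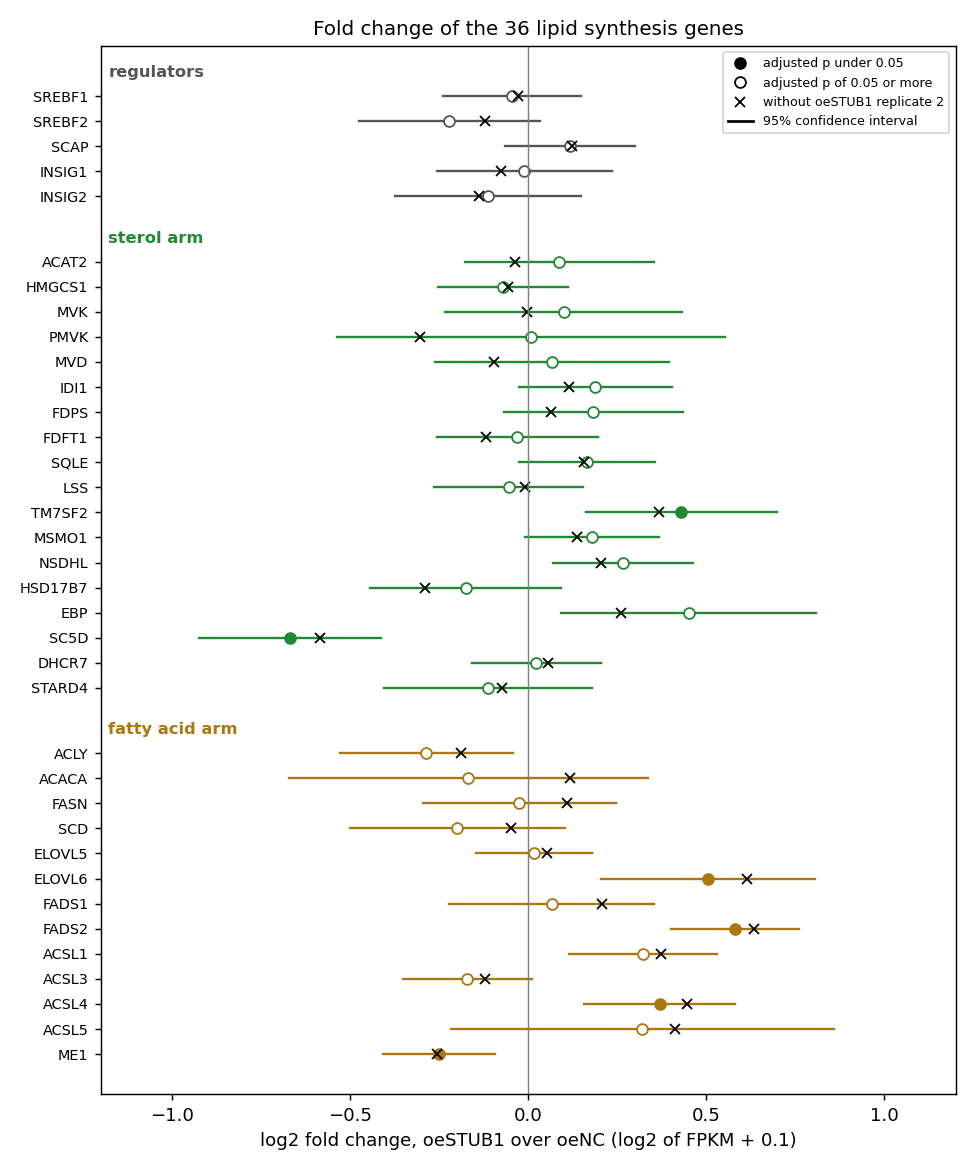
Points give the log2 fold change of oeSTUB1 over oeNC for each of the 36 genes, on the log2(FPKM + 0.1) scale, with the 95% confidence interval as a line; filled points have an adjusted p under 0.05, and crosses give the value without oeSTUB1 replicate 2. SC5D lies farthest left at -0.67 and FADS2 farthest right at 0.58, and most intervals cross zero.

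**Figure D3:**
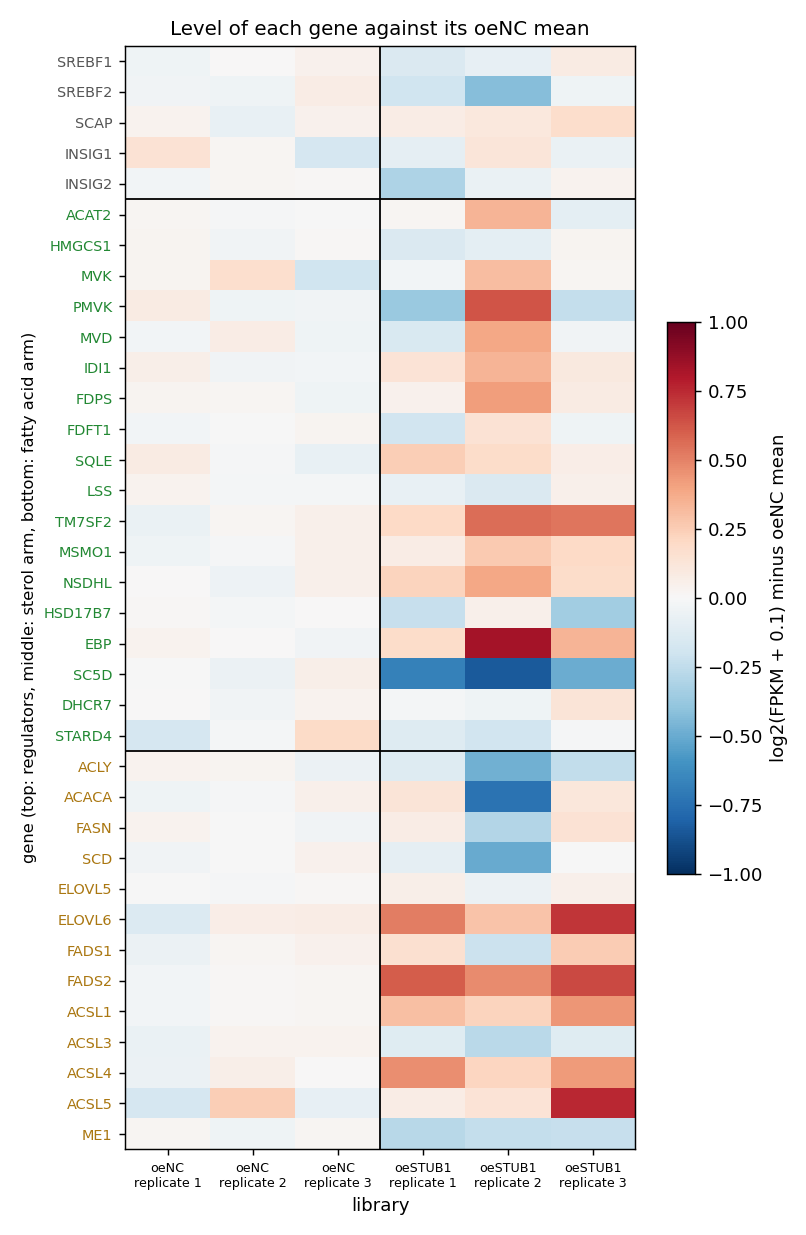
Colours give, for each gene (rows, by role) in each of the 6 libraries (columns), log2(FPKM + 0.1) minus the mean of the 3 oeNC libraries. SC5D is blue and FADS2 is red in all 3 oeSTUB1 libraries, and oeSTUB1 replicate 2 is redder for PMVK and EBP and bluer for ACACA and SCD than its partners.

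The regulators showed no difference that passed the test, 0 of 5 (limma, adjusted), and at an unadjusted p under 0.05 the count was 0 as well. Limma-voom on recovered fragments also gave 0 of 5. With 13.6% of all tested genes called, a count of 0 among 5 genes does not set the regulators apart. SREBF1 stood at 30.3, 31.2 and 32.2 FPKM in oeNC and at 28.3, 29.6 and 33.1 FPKM in oeSTUB1, overlapping ranges with a log2 fold change of -0.05 ± 0.08 (SE), and -0.03 without replicate 2. SREBF2 was at 13.6, 13.6 and 14.7 FPKM in oeNC and at 12.1, 10.3 and 13.5 FPKM in oeSTUB1. All 3 oeSTUB1 values of SREBF2 lay under the lowest oeNC value, by little in replicate 3, and the log2 fold change of -0.22 ± 0.11 (SE; limma, adjusted p = 0.22) became -0.12 without replicate 2. SCAP, the sterol-sensing escort, averaged 11.3 ± 0.5 FPKM in control and 12.3 ± 0.4 FPKM in oeSTUB1 libraries (mean ± SD, n = 3 for both). INSIG1, itself a target of SREBP and often read as its gauge, was at 12.9, 11.8 and 10.4 FPKM in oeNC and at 10.97, 12.7 and 11.2 FPKM in oeSTUB1. Its 95% interval ran from 0.837-fold to 1.18-fold, with a log2 fold change of -0.01 with and -0.08 without replicate 2. INSIG2 had a log2 fold change of -0.11 ± 0.11 (SE). It lies on chromosome 2, where the median over 1031 tested genes was -0.21 and 77.3% of genes were on the lower side. Other chromosomes also stood off zero: the median was 0.16 on chromosome 9 and 2.07 over the 14 tested genes of chromosome Y. Neither of them holds any of the 36 genes. On chromosomes 11 and 17, which hold 5 and 4 of them, the median was 0.07 and -0.04. The part of these shifts in the results was not tested.

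The promoter letters of these genes were not used in choosing them and are given as a description. RefSeq (GRCh38.p14) gave a window of 250 bases before the gene start for 33 of the 37 genes; ACAT2, FDFT1, SQLE and FASN had no entry. Searched on both strands were TCACNCCAC, a core of the sterol regulatory element, CCAAT, the box bound by NF-Y, which is known to work beside SREBP, and GGGCGG, the box bound by Sp1. Matches of different motifs overlapped in 0 of the 33 windows, and the table gives 1 start per gene even where others are annotated. The sterol element core was found in 1 of 33 windows, that of SREBF2, and in 0.875% of 27305 RefSeq promoters. CCAAT stood in 13 of 15 sterol windows (86.7%), in 5 of 13 fatty acid windows (38.5%) and in 33% of all promoters. GGGCGG stood in 93.3% of sterol windows, 69.2% of fatty acid windows and 42.3% of all promoters. The 4 fatty acid genes that passed the test (FADS2, ELOVL6, ACSL4 and ME1) had no CCAAT in the window. Nor had ACACA, ACSL1, ACSL5 and FADS1, which did not pass, so its absence does not set the called genes apart. SC5D and TM7SF2 had 1 each, although one was lower and the other higher. For FADS2, ELOVL6 and SC5D the window lies inside the outermost gene bounds of GENCODE 29, downstream of another annotated start.

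Shown next, 5′ to 3′ on the gene's strand, are SREBF2 for its sterol element core, MSMO1 as a sterol gene with 4 CCAAT boxes in its window (3 in the stretch printed), TM7SF2 and SC5D as the sterol genes that passed the test, and ME1 as a fatty acid gene without CCAAT. Capitals mark the sterol element core and the CCAAT boxes (ATTGG when on the other strand), and the stretch ends where GENCODE 29 begins the gene or, for SC5D, covers the box with a short flank on each side.
SREBF2 (chr22:41832855-41833078, plus strand): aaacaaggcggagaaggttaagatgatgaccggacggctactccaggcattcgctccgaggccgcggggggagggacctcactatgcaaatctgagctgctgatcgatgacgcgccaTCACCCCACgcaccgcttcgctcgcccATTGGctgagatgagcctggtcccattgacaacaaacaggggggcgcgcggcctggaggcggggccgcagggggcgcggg
MSMO1 (chr4:165327419-165327622, plus strand): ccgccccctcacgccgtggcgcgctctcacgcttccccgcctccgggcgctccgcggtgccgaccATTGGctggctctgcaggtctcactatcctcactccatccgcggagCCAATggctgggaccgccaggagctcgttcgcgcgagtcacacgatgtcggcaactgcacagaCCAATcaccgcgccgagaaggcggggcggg
TM7SF2 (chr11:65111622-65111844, plus strand): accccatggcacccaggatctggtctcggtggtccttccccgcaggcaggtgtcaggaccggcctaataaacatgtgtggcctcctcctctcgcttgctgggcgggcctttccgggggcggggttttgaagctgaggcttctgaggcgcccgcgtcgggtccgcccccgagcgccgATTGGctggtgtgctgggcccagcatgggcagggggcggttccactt
SC5D (chr11:121292703-121292731, plus strand): cgccggtcgctgATTGGctggccgctcca
ME1 (chr6:83431072-83431301, minus strand): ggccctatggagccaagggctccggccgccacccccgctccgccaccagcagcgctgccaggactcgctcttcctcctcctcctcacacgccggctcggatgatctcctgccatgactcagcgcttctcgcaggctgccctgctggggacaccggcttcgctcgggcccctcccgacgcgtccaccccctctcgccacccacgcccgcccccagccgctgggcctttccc
Counted back from the RefSeq start, the CCAAT box of SC5D begins at -56 and that of TM7SF2 at -74, and the sterol element core of SREBF2 begins at -133. A match is a description of letters and not a measured binding site.

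In the sterol arm 1 of 18 genes was called higher and 1 lower, 2 of 18 in all (11.1%), a share near the 13.6% of all tested genes (7.01% higher, 6.59% lower). SC5D, which encodes a sterol desaturase acting on lathosterol late in cholesterol synthesis, was lower in oeSTUB1. Its FPKM was 6.67, 6.40 and 6.97 in oeNC and 4.15, 3.69 and 4.70 in oeSTUB1. Every oeSTUB1 library lay below every oeNC library, and the level fell from 6.68 ± 0.28 to 4.18 ± 0.51 FPKM (mean ± SD, n = 3 for both). The log2 fold change was -0.67 ± 0.11 (SE; limma, adjusted p = 0.0071). The value was -0.58 without replicate 2 (adjusted p = 0.0027), and over the 16 alternatives the adjusted p lay between 0.0014 and 0.040. Between 864 and 1813 fragments per library stood behind it. SC5D spans chr11:121292453-121308694 on the plus strand (GENCODE 29, GRCh38).

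TM7SF2, which encodes a sterol reductase acting just after lanosterol demethylation, was higher in oeSTUB1. It measured 5.51, 5.85 and 5.98 FPKM in oeNC and 6.66, 8.54 and 8.42 FPKM in oeSTUB1. The groups did not overlap, replicate 1 of oeSTUB1 being nearest to the control values, and the log2 fold change was 0.43 ± 0.12 (SE; limma, adjusted p = 0.047). It passed in 6 of the 16 alternatives, with adjusted p between 0.018 and 0.17. With 302 to 454 fragments per library it was among the most thinly covered of the 36 genes.

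No other sterol gene passed with all 6 libraries. EBP, the sterol isomerase of the step before SC5D, read 34.1, 33.4 and 32.4 FPKM in oeNC and 37.8, 59.3 and 42.2 FPKM in oeSTUB1. All oeSTUB1 values exceeded the oeNC values, but replicate 2 alone was 1.48 times the mean of its partners, and the log2 fold change of 0.45 ± 0.15 (SE; limma, adjusted p = 0.097) became 0.26 without it (adjusted p = 0.016). NSDHL, a dehydrogenase that takes part in removing methyl groups after lanosterol, had 13.5, 13.03 and 14.01 FPKM in oeNC and 15.8, 17.7 and 15.4 FPKM in oeSTUB1. The groups of NSDHL did not overlap, with a log2 fold change of 0.27 ± 0.09 (SE; limma, adjusted p = 0.080) and 0.20 without replicate 2 (adjusted p = 0.032). HSD17B7, the reductase of the same step series, averaged 6.47 ± 0.07 FPKM in oeNC and 5.76 ± 0.85 FPKM in oeSTUB1 (mean ± SD, n = 3 for both), overlapping with all libraries, and its log2 fold change was -0.18 with and -0.29 without replicate 2 (limma, adjusted p = 0.35 and 0.019). A pair of pseudogenes carries its name.

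The mevalonate and isoprenoid genes had no difference that passed with all libraries. HMGCS1, which makes HMG-CoA, averaged 19.2 ± 0.4 FPKM in oeNC and 18.3 ± 1.2 FPKM in oeSTUB1 (mean ± SD, n = 3 for both). FDPS, farnesyl diphosphate synthase, had the highest FPKM of the sterol arm. It averaged 49.7 ± 1.4 FPKM in oeNC and 56.7 ± 8.4 FPKM in oeSTUB1 (mean ± SD, n = 3 for both). In GENCODE 29, 8 pseudogenes carry the name of FDPS, and 18.6% of its exon bases are shared with RUSC1-AS1 on the opposite strand. PMVK, phosphomevalonate kinase, is the plainest case of the library that stands apart: 19.7, 18.0 and 18.1 FPKM in oeNC faced 14.4, 28.7 and 15.7 FPKM in oeSTUB1. With all libraries its log2 fold change was 0.01, a sign that turned with median-ratio scaling and quantile normalization, and without replicate 2 it was -0.30 (limma, adjusted p = 0.015). The log2 fold changes of ACAT2 (acetoacetyl-CoA thiolase), MVK (mevalonate kinase), MVD (the decarboxylase of the route), IDI1 (the isopentenyl isomerase) and FDPS lay between 0.07 and 0.19, none passing the test, and those of ACAT2, MVK and MVD were -0.04, -0.0048 and -0.10 without replicate 2. Without that library FDPS went from 0.18 to 0.06 and IDI1 from 0.19 to 0.12. In GENCODE 29, ACAT2 shares 33.9% of its exon bases with SOD2-OT1, 26.5% with SOD2 and 9.23% with TCP1, and IDI1 14.8% with IDI2-AS1, on the opposite strand.

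From squalene on, the remaining genes had no difference that passed. SQLE, squalene epoxidase and a rate-limiting enzyme of the route, was at 27.2, 25.4 and 24.3 FPKM in oeNC and at 30.4, 29.1 and 26.8 FPKM in oeSTUB1. These ranges overlapped, and the log2 fold change was 0.16 ± 0.08 (SE; limma, adjusted p = 0.23). FDFT1 (squalene synthase), LSS (lanosterol synthase), DHCR7 (the reductase of the closing step) and STARD4 (a sterol carrier) had log2 fold changes of -0.03, -0.06, 0.02 and -0.11, and of -0.12, -0.0089, 0.05 and -0.07 without replicate 2. MSMO1, the oxidase that starts this removal of methyl groups, averaged 15.0 ± 0.5 in oeNC and 17.0 ± 1.1 FPKM in oeSTUB1 (mean ± SD, n = 3 for both), at a log2 fold change of 0.18 ± 0.08 (SE; limma, adjusted p = 0.19). SC5D over DHCR7, both per length and within a library, was 0.266, 0.262 and 0.272 in oeNC and 0.168, 0.151 and 0.171 in oeSTUB1, a ratio chosen after the values were seen and given without a test.

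In the fatty acid arm 4 of 13 listed genes passed (30.8%), 3 higher and 1 lower, against 13.6% of all tested genes called, 7.01% higher and 6.59% lower. The difference of this share from that of the sterol arm or of all genes was not tested. FADS2, the desaturase that opens the conversion of linoleic and alpha-linolenic acid to longer polyunsaturated fatty acids, was higher. It measured 51.0, 52.5 and 52.7 FPKM in oeNC and 79.3, 72.4 and 82.6 FPKM in oeSTUB1. The lowest oeSTUB1 library stood well above the highest oeNC library, and the level rose from 52.1 ± 0.9 to 78.1 ± 5.2 FPKM (mean ± SD, n = 3 for both), by 49.9%. The log2 fold change was 0.58 ± 0.08 (SE; limma, adjusted p = 0.0029). It was 0.63 without replicate 2, and the adjusted p over the 16 alternatives lay between 1.2e-04 and 0.025. FADS2 spans chr11:61792980-61867354 on the plus strand, and 1 pseudogene carries its name.

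FADS1, its neighbour on the opposite strand and the next desaturase of the same route, did not pass with all libraries. It was at 64.3, 67.8 and 69.0 FPKM in oeNC and at 75.0, 57.6 and 79.9 FPKM in oeSTUB1. Replicate 2 lay under the control range and the other oeSTUB1 libraries above it, so that the log2 fold change was 0.07 with and 0.21 without it (limma, adjusted p = 0.76 and 0.022). The genes share 490 exon bases in the annotation, 4.79% of those of FADS1. FADS2 over FADS1 within a library was 0.793, 0.776 and 0.764 in oeNC and 1.06, 1.26 and 1.03 in oeSTUB1, again chosen after the values were seen and not tested.

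**Figure D4:**
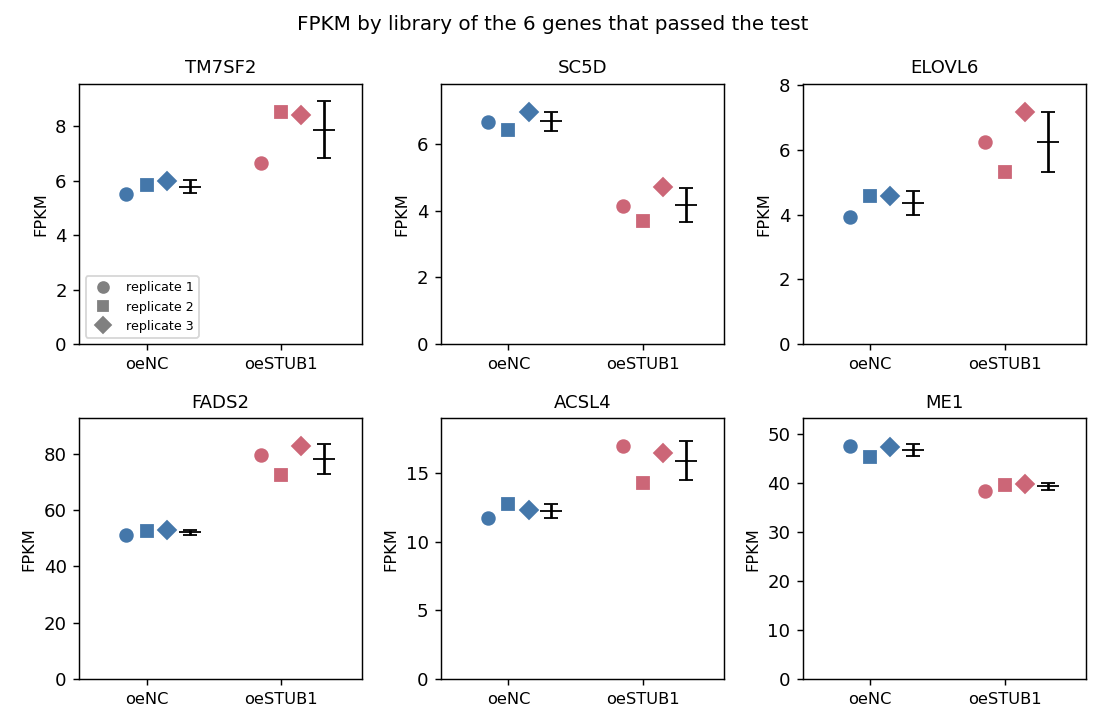
FPKM (vertical axes, from zero) of the 6 genes that passed the test, with circles, squares and diamonds for replicates 1, 2 and 3, blue for oeNC and red for oeSTUB1, and the mean with SD beside each group (n = 3). The groups do not overlap in any panel; SC5D and ME1 are lower and the other 4 genes higher in oeSTUB1.

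ELOVL6, the elongase of palmitate, was at 3.94, 4.56 and 4.57 FPKM in oeNC and at 6.25, 5.32 and 7.18 FPKM in oeSTUB1. The groups did not overlap, with a log2 fold change of 0.50 ± 0.13 (SE; limma, adjusted p = 0.040), and 8 of the 16 alternatives called it. ELOVL5, the elongase of polyunsaturated fatty acids, averaged 38.5 ± 0.3 FPKM in oeNC and 38.9 ± 1.7 FPKM in oeSTUB1 (mean ± SD, n = 3 for both). Its 95% interval ran from 0.903-fold to 1.13-fold, with a log2 fold change of 0.02 with and 0.05 without replicate 2.

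ACSL4, the acyl-CoA synthetase that prefers arachidonic acid, was at 11.8, 12.8 and 12.3 FPKM in oeNC and at 17.0, 14.3 and 16.5 FPKM in oeSTUB1. Again no library of one group fell among those of the other, and the log2 fold change was 0.37 ± 0.09 (SE; limma, adjusted p = 0.036), called in 9 of the 16 alternatives. ACSL1 was also higher in all 3 oeSTUB1 libraries, at 8.48, 7.995 and 9.35 FPKM against 6.71, 6.89 and 6.95 FPKM in oeNC, but missed the threshold (log2 fold change 0.32 ± 0.09, SE; limma, adjusted p = 0.052). It passed without replicate 2 at 0.37 (adjusted p = 0.0075). ACSL3, which serves lipid droplets, lay lower in each oeSTUB1 library than in any oeNC library, at 33.9, 30.5 and 33.8 FPKM against 35.2, 37.7 and 37.7 FPKM, without passing (log2 fold change -0.17 ± 0.08, SE; limma, adjusted p = 0.19). Like INSIG2 it lies on chromosome 2. ACSL5 was the lowest of the 36 genes, with 56 to 116 fragments per library. Its 95% interval ran from 0.86-fold to 1.81-fold, so a change of that size was not resolved. The oeSTUB1 libraries held 68, 69 and 116 fragments of it, in replicate order.

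ME1, the cytosolic malic enzyme that supplies NADPH for fatty acid synthesis, was at 47.6, 45.4 and 47.4 FPKM in oeNC and at 38.5, 39.7 and 39.9 FPKM in oeSTUB1. The oeSTUB1 values were close together and all below the control values, with a log2 fold change of -0.25 ± 0.07 (SE; limma, adjusted p = 0.049), and 6 of the 16 alternatives called it. ACLY, which makes cytosolic acetyl-CoA from citrate and had the highest level of the 36 genes, was at 225, 224 and 211 FPKM in oeNC and at 201, 157 and 186 FPKM in oeSTUB1. It too lay wholly below control, but its log2 fold change of -0.29 ± 0.10 (SE) did not pass (limma, adjusted p = 0.12), and it was -0.19 without replicate 2 (adjusted p = 0.034).

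ACACA, FASN and SCD, genes of fatty acid synthesis and desaturation, had no difference that passed. ACACA, acetyl-CoA carboxylase, was at 13.8, 14.1 and 14.7 FPKM in oeNC and at 15.5, 8.43 and 15.3 FPKM in oeSTUB1. Replicate 2 alone was low, and the log2 fold change of -0.17 turned to 0.12 without it. FASN, fatty acid synthase, averaged 40.1 ± 0.9 FPKM in oeNC and 39.7 ± 6.2 FPKM in oeSTUB1 (mean ± SD, n = 3 for both), with log2 fold changes of -0.02 with and 0.11 without replicate 2. SCD, the desaturase that makes oleate, was at 133, 136 and 140 FPKM in oeNC and at 128, 96.2 and 136 FPKM in oeSTUB1. Its log2 fold change was -0.20 with and -0.05 without replicate 2, and 1 pseudogene carries its name. None of the 3 passed either way.

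Further genes of lipid metabolism, listed apart from the 36, were read from the same fit, in which 13.6% of all tested genes were called (7.01% higher, 6.59% lower). Of 8 genes of sterol sensing and SREBP processing 0 passed with limma and 0 with limma-voom, and 2 had an unadjusted p under 0.05. The smallest adjusted p (limma) was 0.079 for ERLIN1, which helps sterol-regulated protein degradation, at a log2 fold change of 0.21. The SREBP protease MBTPS1 stood at -0.09. Of 10 genes that lead from isoprenoids to other products 0 passed with limma and 0 with limma-voom, and 0 had an unadjusted p under 0.05. GGPS1, DHDDS, COQ2 and PDSS1 stood at 0.13, -0.15, 0.18 and 0.15. Of 10 genes of sterol storage and transport 3 were higher (2 passed with limma-voom): NPC2 and NPC1, which move cholesterol out of lysosomes, and GRAMD1A, which carries it to the endoplasmic reticulum. The remaining 7 had a negative log2 fold change, and the median over the 10 was -0.11. NPC2 was at 22.4, 23.0 and 19.99 FPKM in oeNC and at 32.6, 42.6 and 28.7 FPKM in oeSTUB1, all above control, with a log2 fold change of 0.65 ± 0.14 (SE; limma, adjusted p = 0.024). NPC1 stood at 0.47 (adjusted p = 0.047) and GRAMD1A at 0.27 (adjusted p = 0.043), and OSBPL2 at -0.25 did not pass. Of the 16 alternatives NPC2 passed in 12, NPC1 in 8 and GRAMD1A in 6.

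Of 19 tested genes of fatty acid uptake, elongation and control outside the arm, 3 were higher and 2 lower, and 4 passed with limma-voom. The share called by limma was 26.3%, against 13.6% of all tested genes, a difference that was not tested. SLC27A2, a fatty acid transporter and acyl-CoA synthetase, was at 14.7, 14.7 and 18.0 FPKM in oeNC and at 29.6, 34.4 and 35.7 FPKM in oeSTUB1. The oeSTUB1 libraries all lay well above control, with a log2 fold change of 1.07 ± 0.11 (SE; limma, adjusted p = 0.0010). SLC27A4 of the same family was higher by 0.56, MLXIPL, which encodes the carbohydrate-responsive factor ChREBP, was at -0.94 and ELOVL2 at -0.45 on the log2 scale. The remaining call, named after its value was seen, was HACD3, an enzyme of elongation, which was higher. SLC27A2 and SLC27A4 passed in all 16 alternatives, MLXIPL in 14 and ELOVL2 in 10. Of 12 genes of glycerolipids and droplets 2 passed (16.7%), near the share of all tested genes. PLIN2, a coat protein of lipid droplets, was higher (7.57, 7.22 and 8.96 FPKM in oeNC against 12.1, 13.3 and 12.9 FPKM in oeSTUB1). MGLL, monoglyceride lipase, was lower, and the log2 fold changes of PLIN2 and MGLL were 0.69 and -0.54. They passed in 16 and 14 of the 16 alternatives. PNPLA3 at -0.81 and LPIN3 at -0.39 did not pass. Of 12 genes of fatty acid oxidation 2 passed (16.7%), near the share of all tested genes. ACADS was lower at -0.51 and DECR1 higher at 0.35, passing in 8 and 7 of the 16 alternatives, while HADH at 0.24 and HADHA at -0.16 did not pass.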

How the data were processed

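The authors deposited FPKM values per gene symbol for 3 oeNC and 3 oeSTUB1 libraries of TFK1 cells. The submitters' processing notes name fastp 0.20.1, HISAT2 2.1.0, HTSeq 0.11.2, R 3.2.0, DESeq2 1.22.2 and GRCh38.p13, with no roles. The annotation and strand setting are not given in the sources used here. Columns were matched to samples by name, and 0 value columns belonged to no sample.

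Whole fragments and library totals were recovered from the FPKM steps, for 100% of 23569 genes, to within 4.93e-06 FPKM. Each gene took the smallest length at which its 6 fragment numbers are whole. Depth sets the counting error, and fragments behind thin genes are given beside them. The 15353 genes whose mean reached 0.1 FPKM were fitted with limma 3.58.1 in R 4.3.3 (lmFit, eBayes with trend, two-sided) on log2(FPKM + 0.1), with Benjamini-Hochberg adjustment over all of them and a call at an adjusted p under 0.05. A fold change on this scale is understated for low genes. The scripts were tested on simulated data.

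The 37 genes, the further lists and the tests were chosen with earlier results of these data known. All listed members are named, and of each further list up to 4 genes with the smallest adjusted p. Alternatives were 2 pseudocounts (1 and 0.01), 2 filters, median-ratio scaling, quantile normalization, no trend, limma-voom on recovered fragments, a replicate block, leaving out 1 library at a time, and a lowess correction for gene length. Same-numbered libraries did not deviate together, so the replicate numbers were not taken as pairs. Gene bounds and shared exon bases are from GENCODE 29. Its exon bases can differ from the lengths behind the FPKM, as for ACAT2, with 4299 bases against 1821. The overlap in the counting itself is therefore not known. Promoters are from the RefSeq table, and some genes of the pathway are not reported here.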

Additional observations from a re-analysis of the deposited data

How the results depend on the processing

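SC5D and FADS2 kept their direction and passed in all 16 alternatives, and no called gene reversed. With all libraries 1 sterol gene was higher and 1 lower, and 3 fatty acid genes were higher and 1 lower. The count of sterol genes higher was 0 with no filter on low values, median-ratio scaling, quantile normalization, no trend, the replicate block or limma-voom, and 3 with the length correction, an alternative chosen after seeing the data. The count of fatty acid genes higher was 1 with no trend or the replicate block. The count of fatty acid genes lower was 0 with a pseudocount of 0.01, a mean of at least 1 FPKM, no trend, the replicate block or limma-voom, and 2 with the length correction. The cause was not tested. Leaving out 1 library gave 0 to 3 sterol genes higher, 1 to 3 lower, 1 to 5 fatty acid genes higher and 0 to 2 lower. The highest counts came without oeSTUB1 replicate 2, where 26.8% of all tested genes were called. In the other fits without 1 library that share was 6.05% to 10.5%. With the length correction it was 21.6%, against 13.6% without the correction. Leaving out oeNC replicate 1, 2 or 3 or oeSTUB1 replicate 3 left SC5D and FADS2 as the only calls among the 36, and leaving out oeSTUB1 replicate 1 left TM7SF2 as well. Regulators gave 0 calls in every alternative.

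Over all tested genes the calls numbered 2088 with all libraries, 1488 with the replicate block, 3322 with the length correction and 927 to 4118 on leaving out 1 library. The replicate block cut the calls among the 36 to 2. Same-numbered libraries had correlations of -0.05, -0.05 and 0.06 between their deviations. No scaling moved the median of all genes by over 0.1 (log2).

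Of 575 values of single genes under alternatives, 500 kept direction and call, 35 lost the call, 13 gained it and 27 reversed, in 12 genes. PMVK reversed with median-ratio scaling (-0.0153), quantile normalization (-0.0697) and the length correction (-0.0782), DHCR7 with quantile normalization (-0.0521) and the length correction (-0.0248), and FASN with the length correction (0.0414). ELOVL5 reversed with median-ratio scaling (-0.0065), quantile normalization (-0.0698) and the length correction (-0.0127), and FADS1 with quantile normalization (-0.0074). Leaving out 1 library moved SREBF1 between -0.11 and 0.0027, INSIG1 between -0.0933 and 0.061, ACAT2 between -0.0381 and 0.18, MVK between -0.0048 and 0.18, PMVK between -0.30 and 0.19, MVD between -0.10 and 0.18, FDFT1 between -0.12 and 0.052, DHCR7 between -0.0305 and 0.0543, ACACA between -0.32 and 0.12, FASN between -0.11 and 0.11, ELOVL5 between -0.0039 and 0.0524, and FADS1 between -0.0271 and 0.21.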
